A study of Homo sapiens with 6 samples.

Results

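The 14-3-3 proteins are encoded in human cells by 7 genes, YWHAB (14-3-3 beta), YWHAE (epsilon), YWHAG (gamma), YWHAH (eta), YWHAQ (theta), YWHAZ (zeta) and SFN (sigma). The members were taken by gene symbol, with no use of a measured value, though earlier results of these data were known. All 7 were among the 9570 transcripts of the ribosome occupancy table, and 5 were among the 8121 genes of the translational efficiency table, where YWHAE and SFN were not listed. The data came from ribosome profiling, in which the mRNA fragments protected by ribosomes (RPFs) are sequenced, of HEK293 cells, a human embryonic kidney line. There were 3 RPF libraries and 3 total RNA libraries in a single condition, labelled as control siRNA, and RPFs and total RNA of a replicate were prepared from the same lysate. All cells had been treated with cycloheximide, which stalls elongating ribosomes, at 100 µg/ml, so positions along the mRNA were read in its presence. The paper's methods say that the preparation was repeated in triplicate, without naming separate cultures, and nothing in the labels names them. The p-values thus measure only the spread between these samples, which may be technical.

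14-3-3 proteins are small, acidic adaptors that act as homodimers or heterodimers. Each subunit has a groove that binds short motifs holding a phosphorylated serine or threonine, and binding can mask a localization signal, hold a client in an inactive shape or keep it in the cytoplasm. The members other than SFN are expressed in most tissues, whereas SFN is known mainly from stratified epithelia and as a p53 target.

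The identity of the cells was read from which marker genes were listed. Of 5 genes known from HEK293 cells, VIM, NEFM, NEFL and LIN28B were listed in both tables and PAX2 was in neither. Of the markers of stratified epithelium, KRT5, KRT14, TP63 and KRT6A were in neither table, and SFN was in the occupancy table only. ALB, PTPRC and HBA1, which mark liver, white and red blood cells, were not listed, and the fibroblast collagen gene COL1A1 was listed at an mRNA level of 0.0435 relative to the median transcript.

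The positions at which ribosomes were found most often are shown first, because the footprints of the family are read from them. For 6 members the codon with the highest in-frame occupancy is given in capitals, with 12 bases of coding sequence on each side, in the sense of the mRNA and from GENCODE 44 on GRCh37. The codons lie in coding exons at chr20:43530472-43530474 (YWHAB, plus strand), chr17:1265294-1265296 (YWHAE, minus strand), chr7:75959545-75959547 (YWHAG, minus strand), chr22:32352261-32352263 (YWHAH, plus strand), chr2:9731525-9731527 (YWHAQ, minus strand) and chr1:27190349-27190351 (SFN, plus strand).
YWHAB codon 100: tgcaatgatgttCTGgagctgttggac
YWHAE codon 91: caaatggttgagACTgagctaaagtta
YWHAG codon 31: atgaagaacgtgACAgagctgaatgag
YWHAH codon 75: atggctgatggaAACgaaaagaaattg
YWHAQ codon 138: tgtggtgatgatCGAaaacaaacgata
SFN codon 216: tcctacaaagacAGCaccctcatcatg
The codon at the maximum was a different triplet in each of these 6 transcripts. In YWHAZ the maximum was at codon 34.

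A second set of sequences shows a codon that was raised above 3 times the mean of the CDS in the 6 abundant members, all but SFN. Of these, 5 are printed and YWHAZ, in which it is codon 225, is named only. SFN is added for comparison, with 2.76 times the mean on 4 reads. Its occupancy there was 0.830, and its mean of 0.301 fell to 0.0545 outside windows that resemble YWHAQ, described below. The coding sequences were aligned by their proteins, and each line below holds the codon at alignment column 231 in capitals with 12 bases on each side. These codons lie at chr20:43534732-43534734 (YWHAB), chr17:1257536-1257538 (YWHAE), chr7:75958948-75958950 (YWHAG), chr22:32352726-32352728 (YWHAH), chr2:9727546-9727548 (YWHAQ) and chr1:27190382-27190384 (SFN).
YWHAB codon 227: cttagggacaatCTCactctgtggaca
YWHAE codon 228: ttacgtgataatCTGacactatggact
YWHAG codon 230: ctccgcgacaacCTCacgctctggacg
YWHAH codon 230: ctgcgagacaacCTCaccctctggacg
YWHAQ codon 225: cttagagacaacCTAacactttggaca
SFN codon 227: ctgcgagacaacCTGacactgtggacg
The marked codon encodes leucine in each line, by different synonymous triplets, and the reading frame around it encodes the same amino acids in all 6 lines.

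Translational efficiency is given as the deposited linear ratio of RPFs to total RNA, 1 value per replicate, and each gene was compared with the median of all genes, 0.385. The median over genes was 0.382, 0.380 and 0.388 in replicates 1, 2 and 3, so the 3 columns lay on about the same scale. All 5 members listed were above the median, and they spread over a wide range among themselves. YWHAZ and YWHAG were the highest, YWHAQ and YWHAB came next, and YWHAH was the lowest. The formula of the ratio is not stated, so it is not known whether the lengths of the coding sequence and the UTRs enter the order of the genes. Most footprint windows of YWHAZ, YWHAQ and YWHAB match other annotated genes, pseudogenes included, as given below. Whether this bears on their ratios was not tested.

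For YWHAZ, a widely expressed member that binds many kinases and their substrates, the ratio was 6.02, 5.32 and 5.65 in replicates 1, 2 and 3. For YWHAG, the gamma member, it was 5.68, 5.78 and 5.37. The values of these members overlapped and lay above every value of the other 3 members. YWHAQ, the theta member, known from T cells and brain, had 2.71, 2.70 and 2.59. YWHAB, the beta member, known as a partner of RAF kinases, had 2.14, 2.12 and 2.28. YWHAH, the eta member, had 1.01, 1.08 and 1.05. Each of these 3 members lay in a range of its own, and every value of YWHAH was still above the medians of the columns.

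On the log2(value + 0.01) scale, YWHAZ exceeded the median of all genes by 3.85 ± 0.0575 (SE, n = 3, limma adjusted p = 1.20195e-06) and YWHAG by 3.84 ± 0.0513 (SE, n = 3, limma adjusted p = 1.03862e-06). Both stood at the 97.9th percentile of the genes. YWHAQ exceeded the median by 2.77 ± 0.0490 (SE, n = 3, limma adjusted p = 1.43246e-06) and YWHAB by 2.48 ± 0.0516 (SE, n = 3, limma adjusted p = 1.83153e-06), at the 94.3rd and 92.4th percentiles. YWHAH exceeded it by 1.43 ± 0.0502 (SE, n = 3, limma adjusted p = 6.94669e-06), at the 81.1st percentile. Thus 5 of 5 members were called higher at an FDR of 0.05, where 44.7% of all genes were called higher, 44.6% lower and 89.3% in either direction. With 89.3% of genes called one way or the other, the percentiles describe the members better than the call. The median translational efficiency of the 5 members was 2.66.

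**Figure D1:**
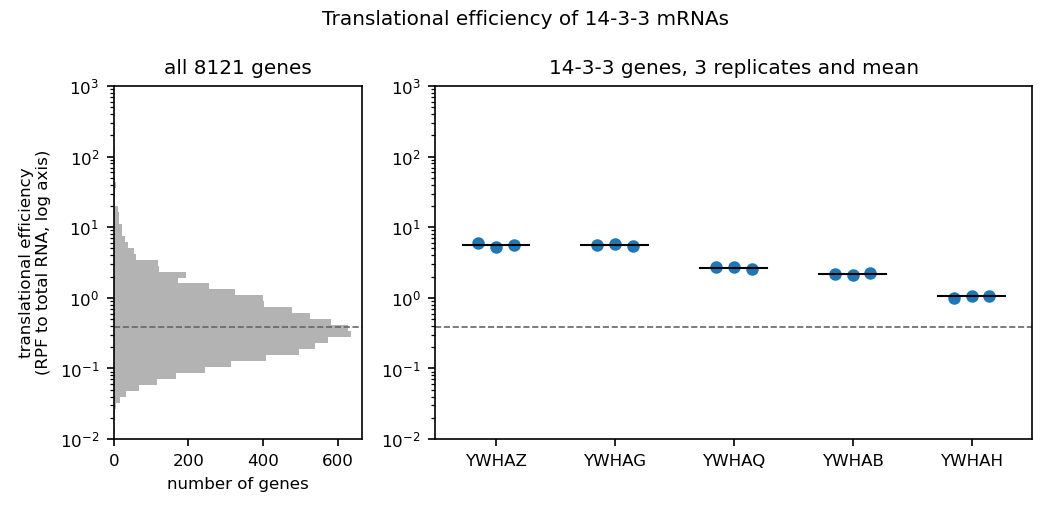
Translational efficiency (ratio of RPFs to total RNA, log axis) of the 5 members listed, with a point for each of the 3 replicates and a bar at the mean, beside the distribution over all 8121 genes and their median of 0.385. YWHAZ and YWHAG overlap, and YWHAQ, YWHAB and YWHAH follow without overlap.

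Neighbours in this order were compared with an exact permutation test, two-sided, for which 3 values against 3 cannot give a p below 0.1, and 4 pairs of neighbours were compared. YWHAZ and YWHAG differed by 0.01 ± 0.11 on the log2 scale (SD, n = 3, exact p = 1), so their order was not resolved. YWHAG was 2.101 times as high as YWHAQ, a difference of 1.07 ± 0.02 (SD, n = 3, exact p = 0.1). YWHAQ was 1.22 times as high as YWHAB, a difference of 0.29 ± 0.09 (SD, n = 3, exact p = 0.1). YWHAB was 2.07 times as high as YWHAH, a difference of 1.05 ± 0.07 (SD, n = 3, exact p = 0.1). The last 3 pairs reached the smallest p this design allows, with the higher member higher in 3 of 3 replicates. Adjusted over the 4 pairs by Benjamini-Hochberg, the exact p of each of these 3 was 0.133. YWHAG and YWHAH, whose aligned coding sequences were the most alike of the family at 78.9% of nucleotides, thus stood 5.31 times apart in translational efficiency.

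Ribosome occupancy was read from the second table, where in-frame RPF counts, normalized for library size, were divided by the mRNA level (TPM) of the transcript, for each codon and with the replicates combined. The values of a transcript were sums of whole multiples of 3 steps, each the worth of a read in a replicate, so the number of reads per replicate could be recovered. Which step belongs to which numbered replicate is not known, and the 3 parts of a value are called components here. The 7 coding sequences held 348699 in-frame reads in all. YWHAE had 154956 of them, YWHAZ 77086, YWHAQ 42242, YWHAB 39568, YWHAG 20604 and YWHAH 13827, whereas SFN had 416. All statements on positions in SFN therefore rest on far fewer reads than those on the other 6 members.

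The size of a step also gives the relative mRNA level, set here against the median transcript. YWHAE had the highest level of the family at 25.4 times the median, followed by YWHAQ at 14.99, YWHAZ at 14.3, YWHAB at 7.002, YWHAH at 5.91 and YWHAG at 4.09. These 6 lay between the 86.1st and the 98.7th percentile. SFN lay at 0.0616 times the median, the 2.19th percentile. Thus 6 members lay in the upper part of the range of mRNA levels and SFN near its low end, with no member between.

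Mean occupancy per codon of the coding sequence was 0.301 for SFN, 0.265 for YWHAE, 0.254 for YWHAB, 0.241 for YWHAZ, 0.224 for YWHAG, 0.127 for YWHAQ and 0.104 for YWHAH. The median over all transcripts was 0.0450, and the members lay between the 84.4th percentile (YWHAH) and the 97.7th (SFN). The components contributed 0.0753, 0.0779 and 0.0713 for YWHAG, against 0.0416, 0.0436 and 0.0418 for YWHAQ. For YWHAH they contributed 0.0352, 0.0366 and 0.0327. YWHAG was 1.77 times as high as YWHAQ and YWHAQ 1.22 times as high as YWHAH without overlap of the components, whereas the components of SFN, YWHAE, YWHAB, YWHAZ and YWHAG overlapped from each to the next. The components of SFN, at 0.0734, 0.127 and 0.101, were the most uneven. As a median over codons in place of a mean, occupancy lay between 0.0298 (YWHAH) and 0.104 (YWHAB) in the 6 abundant members and was 0 in SFN.

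**Figure D2:**
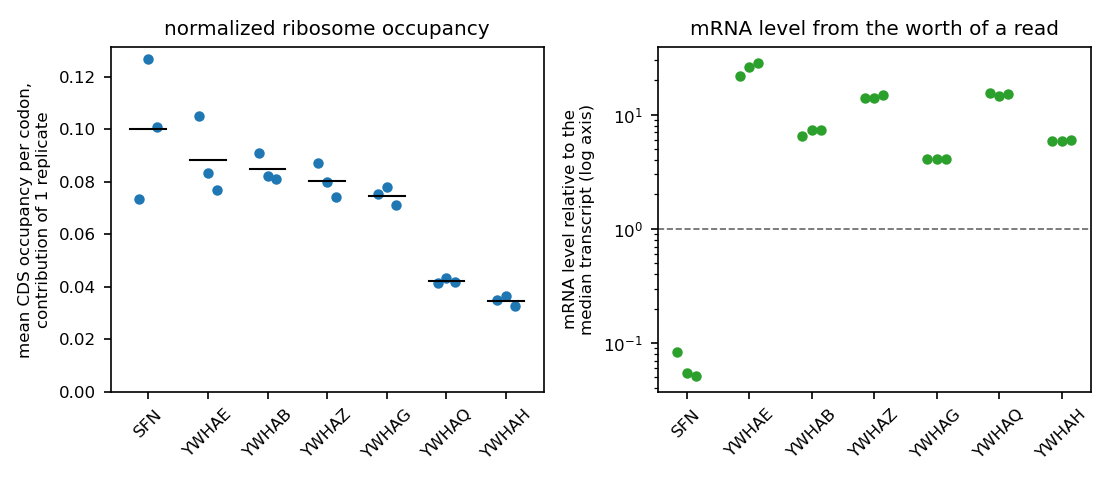
Mean CDS occupancy per codon of the 7 members (RPFs per TPM, normalized by the authors) shown as the contributions of the 3 components (points) with their mean (bar), and the mRNA level relative to the median transcript on a log axis. SFN has the highest sum of contributions, 0.301, on the lowest mRNA level, 0.0616 times the median transcript.

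The order of the members was not the same in both readouts. YWHAB was below YWHAQ in translational efficiency in 3 of 3 replicates, with a mean of 2.18 ± 0.0870 against 2.66 ± 0.0677 (SD, n = 3). In occupancy YWHAB was above YWHAQ, and its lowest component, 0.0812, exceeded the highest of YWHAQ, 0.0436. Over all codons YWHAH was the lowest member in both readouts, but YWHAQ and SFN had a lower occupancy than YWHAH in windows that no other annotated transcript shares (0.0921 and 0.0518 against 0.103). Over the 6912 genes found in both tables translational efficiency and mean occupancy had a Spearman coefficient of 0.688, given as a description because both values come from the same libraries. Nearest to the median of the members in both readouts together, of these genes, were GCLM, the modifier subunit of glutamate-cysteine ligase, LRPAP1, a chaperone of LDL receptor family proteins, and MRPS21, a protein of the mitochondrial small ribosomal subunit. Their distances were 0.0742, 0.0767 and 0.0868 in units of the SD over genes, and their translational efficiencies were 2.54, 2.64 and 2.79.

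The SFN value rests on few sequences. A footprint of 29 nt was placed at each codon, with the offset of 13 nt that the authors used, and compared with the transcripts of other genes that are annotated as protein-coding. At 9 SFN codons it differed from a YWHAQ footprint at no more than 2 positions. These 9 codons held 343 of the 416 SFN reads, 82.5% (exact 95% binomial interval 78.4% to 86.0%, which covers counting error only). In YWHAQ the matching windows held 410 reads, or 0.971% of its reads. The windows with the most reads are shown with the differing bases in capitals, SFN above YWHAQ in each pair.
SFN codon 10: TctgatccagaaggccaagctggcAgagc
YWHAQ codon 10: GctgatccagaaggccaagctggcCgagc
SFN codon 215: GgactcCtacaaagacagcaccctcatca
YWHAQ codon 213: AgactcAtacaaagacagcaccctcatca
SFN codon 216: ctcCtacaaagacagcaccctcatcatgc
YWHAQ codon 214: ctcAtacaaagacagcaccctcatcatgc
The SFN windows lie at chr1:27189718-27189746, chr1:27190333-27190361 and chr1:27190336-27190364 on the plus strand, in the only exon of the gene.

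The number of reads in these windows was often equal in the 2 genes. At codon 10 both SFN and YWHAQ had 81 reads, made up of 39, 28 and 14 in the components. At SFN codon 215 and YWHAQ codon 213 both had 88 reads, made up of 43, 28 and 17. At SFN codon 216 and YWHAQ codon 214 the numbers were 94 and 96. Of the 9 windows, 8 had reads, and 5 of these had the same number in each component. These 5 held 225 SFN reads, 54.1% of its total. The table does not tell whether these are the same reads placed in both genes. Outside the 9 windows SFN had 73 reads in 46 of 240 codons, with at most 6 in a codon, and its mean occupancy there was 0.0545, against 0.301 over the whole coding sequence and 0.0450 for the median transcript. The high rank of SFN was thus not present in the part of its sequence that YWHAQ does not share.

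**Figure D3:**
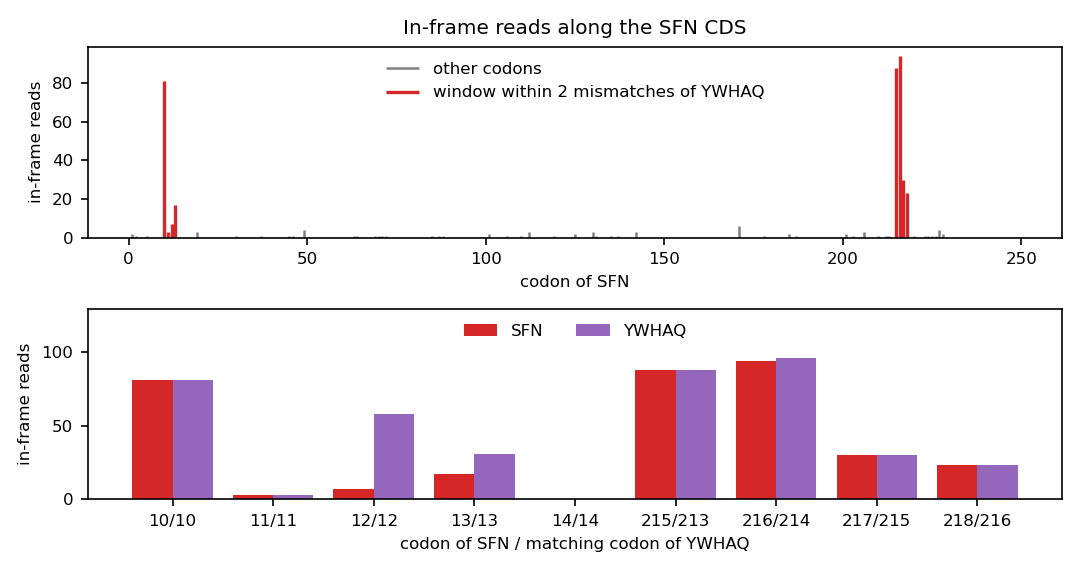
Reads per codon along the SFN coding sequence, with codons whose footprint matches YWHAQ within 2 mismatches marked, and below them the reads of SFN and YWHAQ in the 9 matching windows. The matching windows hold 343 of the 416 SFN reads, and 5 of the 8 with reads have equal bars.

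Windows of equal number were found between other members too. YWHAG and YWHAH shared 14 windows with reads, of which 6 had the same number in each component. Of these 6, 3 recurred in YWHAQ as 1 stretch, codons 17 to 19 of YWHAG and YWHAH and 16 to 18 of YWHAQ, with 65, 4 and 46 reads in each of the 3 genes. YWHAQ and YWHAZ had 1 such window, with 74 reads, and YWHAG and SFN had 1, with 1 read. In the abundant members windows shared with protein-coding transcripts of other genes were a minor part of the sequence. Within 2 mismatches of such a transcript lay 0.813% of the windows of YWHAE, 2.53% of YWHAB, 3.81% of YWHAZ, 6.78% of YWHAQ, 8.82% of YWHAG and 19.0% of YWHAH. A few further windows of YWHAB matched a TSG101 transcript with no defined coding sequence, 1 of them (codon 8) exactly, and are not in its share. The share of YWHAH includes matches to a readthrough gene annotated at its own locus. With that gene counted as YWHAH, 18 windows or 7.59% were shared. The means that follow leave out the counted windows and the end codons of each coding sequence, at which no whole footprint fits. In YWHAE the end codons held 9929 reads and the 2 shared windows 334. Mean occupancy was then 0.260 for YWHAE, 0.248 for YWHAB, 0.246 for YWHAZ, 0.222 for YWHAG, 0.125 for YWHAQ and 0.102 for YWHAH. SFN fell to 0.0516 and became the lowest of the 7, while the order of the other members stayed. That order did not hold over all annotated transcripts, as given next.

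Over all annotated transcripts, pseudogenes included, the shares were far larger for YWHAZ, YWHAE, YWHAQ and YWHAB and about the same for the other 3. In YWHAZ and YWHAE 100% of windows had a match within 2 mismatches in another annotated gene, processed pseudogenes among them, and 91.9% and 52.0% had an exact one. The share within 2 mismatches was 77.1% for YWHAQ, 58.6% for YWHAB, 19.8% for YWHAH, 8.82% for YWHAG and 6.69% for SFN. Over the windows with no match in any annotated transcript, mean occupancy was 0.222 for YWHAG (217 windows), 0.184 for YWHAB (98), 0.103 for YWHAH (190), 0.0921 for YWHAQ (54) and 0.0518 for SFN (223). YWHAB then lay below YWHAG and YWHAQ below YWHAH, and YWHAZ and YWHAE had no such window. The occupancy table is built on transcripts, and its values for YWHAZ and YWHAE hold whatever pseudogene reads reached them, which was not tested. Whether pseudogene matches bear on the order of the members in translational efficiency or on their mRNA levels was not tested. Nor was it tested whether they bear on the absence of YWHAE from the translational efficiency table.

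Along the coding sequence the members differed in where ribosomes lay. The mean occupancy of the first 75 codons was divided by that of the last 75, a window that the study used too. The ratio was 1.64 for YWHAG (components 1.48 to 1.75), 1.104 for YWHAZ (1.04 to 1.14) and 1.06 for YWHAE (1.01 to 1.09). It was 0.832 for YWHAH (0.801 to 0.879), 0.625 for YWHAB (0.567 to 0.672), 0.452 for SFN (0.322 to 0.608) and 0.345 for YWHAQ (0.336 to 0.350). The median over transcripts was 0.985, with quartiles of 0.547 and 1.69. Of the 6 abundant members, YWHAQ thus had the lowest ratio and YWHAG the highest, and the components of these 2 did not overlap with those of any other abundant member. With 50 codons in place of 75 the ratios of YWHAE and YWHAZ fell to 0.534 and 0.991. Without shared windows and end codons that of YWHAH was 1.29 (1.13 with the readthrough gene counted as YWHAH). The direction of these 3 thus depends on the choice. With medians of the windows in place of means YWHAZ had 1.91, above YWHAG at 1.71, and YWHAQ had 0.606, still the lowest of the 6. SFN, with few reads, fell to 0.0619 without the first 15 and last 5 codons and to 0.259 without the highest codon of each window, below YWHAQ at 0.266 and 0.336.

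The highest codons were well repeated between components. The coefficient across codons between components lay from 0.888 to 0.975 for the 6 abundant members and from 0.713 to 0.769 for SFN, over codons that carry reads. In YWHAG, codon 31 stood at 15.2 times the mean of the CDS with 1283 reads and codon 184 at 12.9 times with 1043. In YWHAH, codon 75 stood at 13.2 times with 741 reads and codon 184 at 12.5 times with 691. Codon 184 is the same tyrosine codon, TAT, at the same aligned position of both paralogs, and its footprint differs by 2 bases between them, so that reads of one may have been placed in the other, which was not tested. In YWHAQ, codon 138 stood at 14.3 times with 2488 reads. YWHAB at codon 100 and YWHAE at codon 91 reached 10.6 times each, with 1689 and 6480 reads, and YWHAZ at codon 34 reached 10.8 times with 3392. In SFN, codon 216 stood at 58.9 times with 94 reads, one of the windows matched in YWHAQ.

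The 10 highest codons held 27.5% of the occupancy in YWHAB, 26.2% in YWHAE, 33.8% in YWHAG, 32.7% in YWHAH, 33.2% in YWHAQ and 25.6% in YWHAZ. Transcripts of 200 to 300 codons with at least the reads of YWHAH, 115 in number, had a median of 32.9% with quartiles of 29.01% and 37.4%. In SFN the share was 85.3%. Among those transcripts the 6 abundant members lay between the 6.09th percentile (YWHAZ) and the 56.5th (YWHAG), so their footprints were no more concentrated than is usual at this length and depth.

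**Figure D4:**
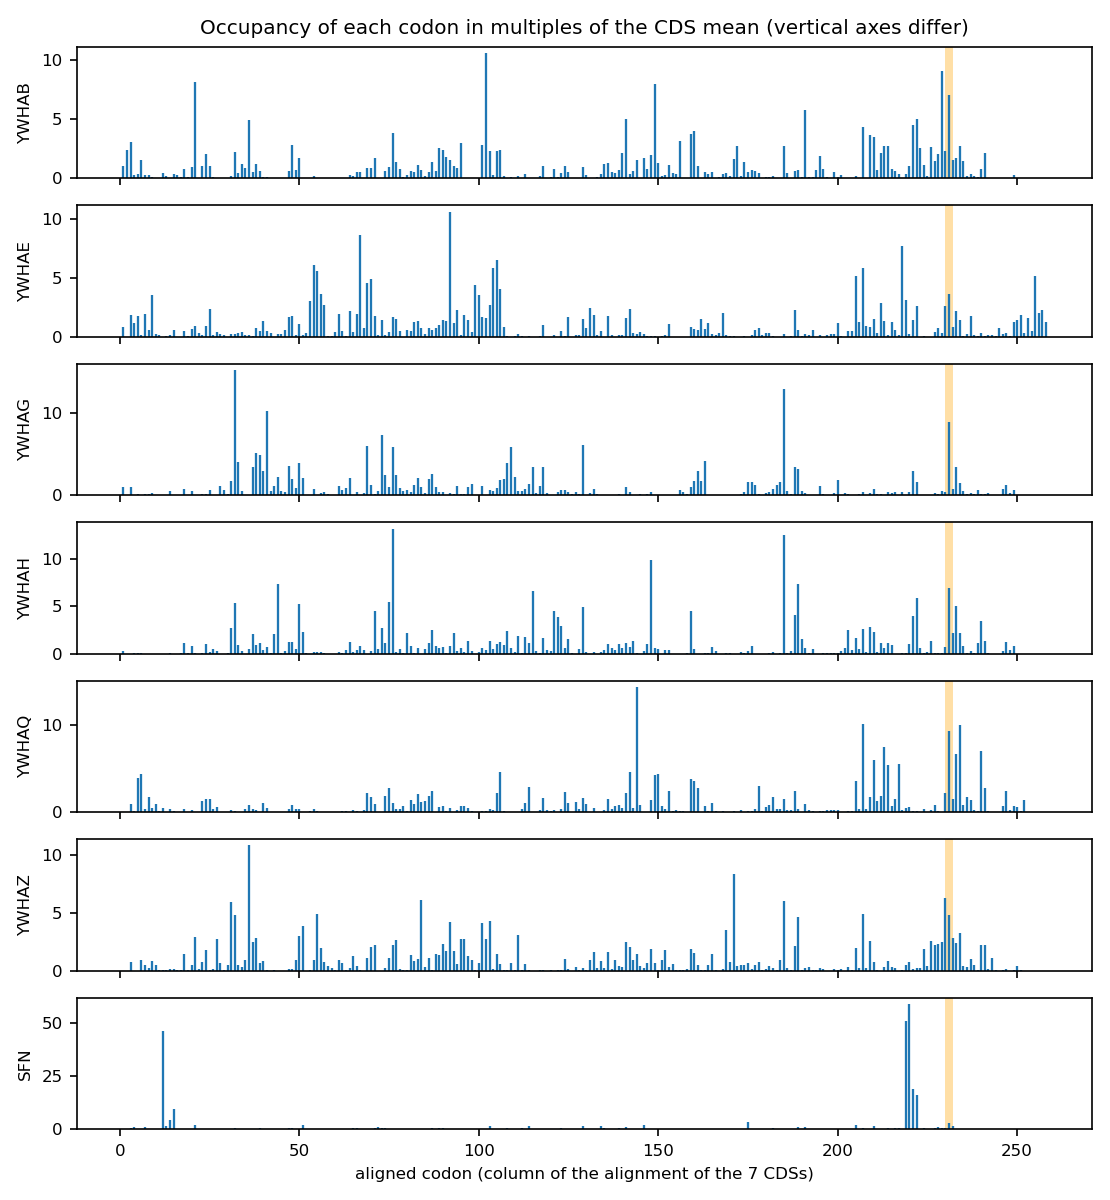
In-frame occupancy of each codon, as a multiple of the CDS mean, against the alignment column of the 7 coding sequences, with column 231 shaded and vertical axes that differ between members. The shaded codon is at 3.62 to 9.27 times the mean in the 6 abundant members, and SFN has its reads at a few codons.

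The codon at column 231, whose surroundings were printed above, was the only 1 of 258 aligned columns that exceeded 3 times the CDS mean in all 6 abundant members. It stood at 9.27 times in YWHAQ with 1638 reads, 8.87 times in YWHAG with 742, 7.02 times in YWHAB with 1124, 6.97 times in YWHAH with 388, 4.83 times in YWHAZ with 1533 and 3.62 times in YWHAE with 2239. In YWHAG the components had 333, 247 and 162 reads there, and in YWHAQ 667, 714 and 257. In SFN the aligned codon stood at 2.76 times on 4 reads. Its occupancy was 0.830, against a mean of 0.301 over the whole coding sequence. Outside the windows matched in YWHAQ that mean was 0.0545, so the low multiple of SFN depends on those windows. No footprint at this codon matched a protein-coding transcript of another gene within 2 mismatches. It matched a processed pseudogene exactly in YWHAE, YWHAQ and YWHAZ and within 2 mismatches in YWHAB, and none in YWHAG and YWHAH. Columns above 3 times the mean were otherwise scattered, as 56 were raised in 1 member, 17 in 2, 6 in 3, 1 in 4 and 0 in 5. The column was found by searching these same profiles, so it is a description and was not tested.

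Profiles of paralogs were compared as Pearson coefficients of log occupancy across aligned codons. The closest pairs were YWHAB with YWHAZ at 0.492 (244 codons), YWHAG with YWHAH at 0.468 (246 codons) and YWHAB with YWHAQ at 0.461 (244 codons). Without end codons and windows that match a protein-coding transcript of another gene the coefficients were 0.479, 0.371 and 0.495. With those codons left out, YWHAB with YWHAH stood above YWHAG with YWHAH. The codons left out include those of YWHAH that match the readthrough gene. The lowest value was 0.0901, for YWHAZ with SFN. The points of a pair come from the same libraries and from related sequence.

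Almost all in-frame reads of the family lay in the coding sequence, from 98.8% of the occupancy in YWHAB to 99.9% in YWHAQ, against a median of 99.4% over transcripts. SFN had 0 reads in its UTRs beside 416 in its CDS, which allows a share of up to 0.721%, or up to 4.11% of the 73 reads outside the windows matched in YWHAQ. The reads of the 5′UTR were few and sat at a few codons. YWHAB had 475, of which 345 were at the in-frame codon 19 before the AUG, 72.5% of its 5′UTR occupancy. YWHAZ had 323, all in the codon next to the AUG. YWHAG had 191, with 66 in the codon next to the AUG and 69 at the codon 36 before it. YWHAE had 358, YWHAH 52 and YWHAQ 25. The 3′UTRs held between 2 reads (YWHAQ) and 21 (YWHAE) in these 6 members. Since the table holds one reading frame, reads of upstream open reading frames in the other frames are not in these numbers.

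The partners of 14-3-3 proteins were read from the same fit, in lists chosen with earlier results of these data known. Clients are the phosphorylated proteins that they bind, and 39 of the 66 client genes were listed. Of these 10 were called higher than the median of all genes, 26 lower and 3 neither way, and their median translational efficiency was 0.242, against 0.385 for all genes. The highest was CFL1 (cofilin, which severs actin filaments) at 1.84, 1.501 and 1.63 in replicates 1, 2 and 3. FOXO1, a transcription factor that 14-3-3 proteins keep in the cytoplasm once AKT has phosphorylated it, had 1.04, 0.914 and 0.934. ZFP36L1, which directs the decay of AU-rich mRNAs, had 0.820, 0.720 and 1.05. These 3 clients stayed below the mean of YWHAB, and their values overlapped those of YWHAH for FOXO1 and ZFP36L1.

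The lowest clients were BAD, a proapoptotic BCL2 family protein released when it loses its phosphate, at 0.0444, 0.0363 and 0.0406, MDM4, an inhibitor of p53, at 0.0356, 0.0581 and 0.0466, and CTNNB1 (beta-catenin) at 0.0530, 0.0568 and 0.0574. All 3 were called lower than the median. On the log2 scale BAD lay at -2.97 ± 0.0639 (SE, n = 3, limma adjusted p = 1.95451e-06), MDM4 at -2.81 ± 0.118 (SE, n = 3, limma adjusted p = 1.20377e-05) and CTNNB1 at -2.58 ± 0.0511 (SE, n = 3, limma adjusted p = 1.66466e-06). In their mean over replicates 4 of the 5 members thus lay above all 39 clients, and YWHAH lay within the range of the clients.

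Of the kinases that create 14-3-3 binding sites on clients, 20 of 25 were listed, with 7 called higher and 13 lower, and the median was 0.190. The highest was PRKACA, the catalytic subunit of protein kinase A, at 2.92, 2.71 and 3.33. The lowest was STK11 (LKB1), which activates AMPK and related kinases, at 0.0406, 0.0518 and 0.0423. Of the kinases that phosphorylate 14-3-3 proteins themselves, 4 of 5 were listed, with 2 called higher and 2 lower. PRKCD, a protein kinase C, had 1.42, 1.37 and 1.70, and MAPK9 (JNK2) had 0.161, 0.173 and 0.190. CSNK1A1 is in both lists of kinases. The counts are to be read beside the background of 44.7% higher and 44.6% lower.

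**Figure D5:**
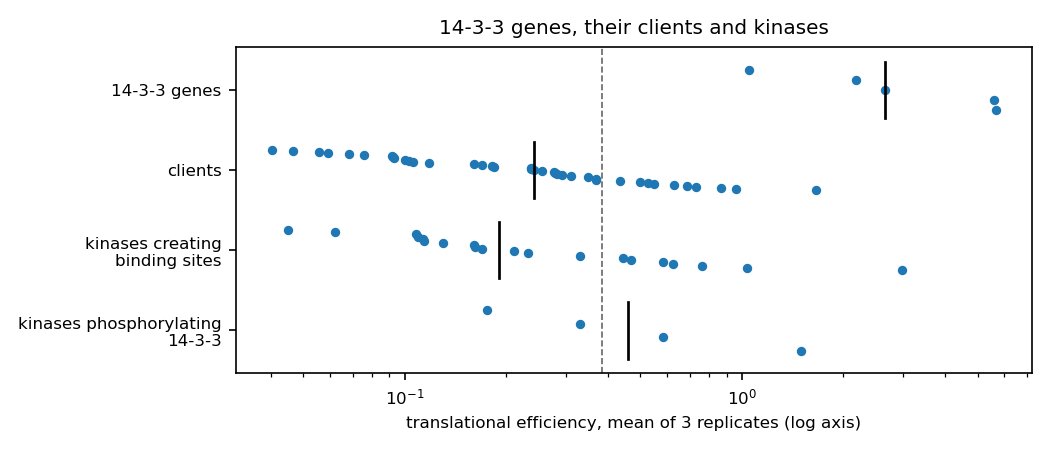
Translational efficiency (log axis) of each listed gene, as the mean of 3 replicates, for the 14-3-3 members, their clients, the kinases that create binding sites and the kinases that phosphorylate 14-3-3 proteins, with a bar at the median of each list and the median of all genes as a dashed line at 0.385. The members lie between 1.05 and 5.66 and the clients between 0.0404 and 1.66.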

How the data were processed

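Sequencing reads had been processed by the authors. The submitters' processing notes name cutadapt 1.16, Bowtie 1.1.2, TopHat2 2.1.1, HTSeq 0.9.1 and build hg19, while the paper's methods give Hisat2 for total RNA. RPFs of 28 to 30 nt were placed with an offset of 13 nt on the most abundant transcript of each gene. Translational efficiency was deposited as a ratio, 1 per gene and replicate, by a formula not stated in the labels or methods. The deposited occupancy is RPFs normalized for library size over TPM, per codon and in-frame, with replicates combined. Columns of other samples were not present.

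Ratios were converted to log2(value + 0.01) and compared gene by gene with the median over all genes, using limma 3.58.1 (R 4.3.3), no filter and Benjamini-Hochberg adjustment over 8121 genes. Since RPFs and total RNA are paired within the ratio, the replicate pairing is part of the deposited values. For occupancy, a set of 3 steps was found for 9450 transcripts (98.7%) at a relative tolerance of 1e-08. The 1590 member values above 0 came out as whole numbers of reads within 2.02e-11, and the next best solution was 9.20e-09 away. Tested on 200 simulated transcripts, 189 were solved, with 9450 of 9450 values exact. The simulated codons held far fewer reads than the highest codons of the abundant members, so the simulation does not cover that depth. Lists broken over lines in 31 transcripts, none of a member, were rejoined. The depth of the libraries behind the ratios is not in the tables.

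Coding sequences came from GENCODE 44 on GRCh37 (the build of hg19) and were aligned with mafft 7.526. Footprints of 29 nt were compared with the transcripts of other genes at up to 2 mismatches, once over all annotated transcripts and once over those of the type protein-coding, UTRs included. Codons at the ends of a coding sequence, where no whole footprint fits, had no window. They were left out wherever shared windows were left out. Python 3.11.15, numpy 2.4.6, pandas 2.3.3, scipy 1.17.1 and matplotlib 3.10.9 were used.

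The members, by gene symbol alone, and the lists were chosen with earlier results of these data known. Named were all 7 members, the 3 highest and 3 lowest clients, and the highest and lowest kinase of each list. Also named were the 3 genes nearest in both readouts to the median of the 5 members with a translational efficiency. The 3 highest codons of each member were taken too, of which the text gives 1 or 2. The search for equal windows and for shared columns was added after the profiles had been seen.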

Additional observations from a re-analysis of the deposited data

How the results depend on the processing

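Of 251 values under an alternative setting, 205 were labelled the same, 40 moved and 6 reversed. For mean occupancy and the ratio of the first to the last codons, the same meant within the SD between components. Counts labelled the same could still differ. Members lower in the first than in the last codons were 4 with windows of 75 codons and 6 with windows of 50. The 5 members were called higher under every alternative run. The number of genes called was 7249, was 7279 with a pseudocount of 0.1, 7170 of 8043 genes with a filter at a mean of 0.05, and 7015 to 7091 when a replicate was left out. With the replicate block 7265 genes were called, and the exact p of neighbouring members was 0.25, the smallest that 3 pairs allow, for 3 pairs of neighbours and 1 for YWHAZ and YWHAG. The block changed no other call. The difference of YWHAZ and YWHAG was -0.0233 to 0.0780 on the log2 scale when a replicate was left out, and reversed without replicate 1 (-0.0233) and without replicate 3 (-0.0177). The kinases that phosphorylate 14-3-3 proteins had 1 to 2 genes called lower when a replicate was left out, 1 without replicate 2. The kinases that create binding sites called higher went from 7 to 6 without replicate 1 and to 5 without replicate 2. Clients called higher went from 10 to 9 whichever replicate was left out, as FOXO3 lost its call. Clients called lower went from 26 to 24 with the filter, which BAD and MDM4 did not pass. They went to 27 without replicate 3, as WWTR1 gained a call. The kinases that create binding sites called lower went from 13 to 12 with the filter, without replicate 1 and without replicate 2. The ratio of the first to the last codons reversed to 0.534 for YWHAE and 0.991 for YWHAZ with windows of 50 codons. Without shared windows and end codons (chosen after seeing the data) this ratio reversed to 1.29 for YWHAH, or to 1.13 with the readthrough gene at its locus counted as YWHAH. It moved by over 1.5 times, in the same direction, to 1.91 for YWHAZ and 0.606 for YWHAQ with medians of the windows, and to 0.0619 and 0.259 for SFN without the first 15 and last 5 codons and without the highest codon of each window. The median of mean CDS occupancy over the 7 members, 0.241, was 0.0773 as a median over codons, 0.231 without the highest codon of each, 0.222 with unshared windows (chosen after seeing the data) and 0.231 to 0.251 when a component was left out (also chosen after seeing the data). In windows unshared with any annotated transcript (also chosen after seeing the data) YWHAQ, at 0.0921, lay below YWHAH, at 0.103. The cause was not tested. SFN, with 416 reads, is the member whose depth limits its values.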
